A study of Mus musculus with 14 samples.

Results

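A group of 9 genes that mature B cells use at or near their surface was followed through the culture of a mouse pre-B cell line. They make up 9 of the 19938 genes measured. They are Tnfrsf13c, Cd22, Cd72, Ms4a1, Cd37, Cd2, Cd55, Bank1 and Fcrla. A gene was taken when a probe set was annotated with its symbol alone, and the brightest such probe set was to stand for it. Each of the 9 genes had exactly 1 probe set, so brightness chose nothing. The list is named for surface receptors, but 2 of its genes are known to code for proteins inside the cell, Bank1 and Fcrla.

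The cells were BH1-Bcl2-Ik1ER, a line of pre-B cells from an Ikaros-deficient mouse that carried retroviral Bcl2 and a fusion of Ikaros with the estrogen receptor, and they were sorted for both retroviruses. All 7 groups share the line, the Bcl2 retrovirus and the fusion. The fusion is switched on by 4-hydroxytamoxifen (4OHT, 100 nM), and IL-7 was supplied as 8% conditioned medium of a cell line that makes it, so that withdrawal meant culture without that medium. The study asked how Ikaros activity and loss of IL-7 change the transcriptome. The first group was taken at time 0, with IL-7 and without 4OHT. Cells at 6 h had 4OHT with IL-7 or 4OHT without IL-7. Cells at 24 h had all 4 combinations of 4OHT or none with IL-7 or none. Each group had 2 arrays, 1 from each of 2 independent experiments. All arrays come from this 1 line with overexpressed Bcl2. No cells without the fusion were among them, so an action of 4OHT itself and Ikaros activity cannot be told apart. No cells at 6 h without 4OHT were among them either, so at 6 h the effect of 4OHT cannot be told apart from that of culture time.

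B cells that leave the bone marrow depend on a set of surface proteins that tune survival and the response to antigen. The BAFF receptor, coded by Tnfrsf13c, binds the cytokine BAFF and keeps mature B cells alive through the alternative NF-kappaB pathway. CD22 and CD72 are inhibitory co-receptors that recruit the phosphatase SHP-1 and dampen signalling by the B cell receptor. CD20 (Ms4a1) and the tetraspanin CD37 span the membrane several times, CD2 is an adhesion protein that binds CD48 in the mouse, and CD55 protects cells from their own complement by breaking up C3 convertases. BANK1 is a scaffold that links the B cell receptor to calcium release, and FCRLA is an Fc receptor-like protein that stays inside human B cells. Ikaros, coded by Ikzf1, is a zinc finger protein that binds DNA and drives early B cell development, and IL-7 is the cytokine that supports growth of pro-B and pre-B cells through STAT5.

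Windows around a start site of these genes are shown here because 4OHT switches on a DNA-binding protein and several of the genes moved together. Each window runs from 250 bases before to 50 bases after a gene's start site, in RefSeq's entry on GRCm38.p6, and 7 of the 9 genes had one; Cd2 and Ms4a1 had none in the table. Both strands were searched for TGGGAA, a core motif of Ikaros, for GAGGAA, a core motif of PU.1 and related ETS proteins, and for TTCNNNGAA, the motif of STAT proteins. TGGGAA was present in 1 of the 7 windows, that of Cd22, and in 25.6% of all 32851 promoter windows. GAGGAA was present in 3 of the 7, those of Cd37 (2 matches), Cd72 and Fcrla, and in 28.3% of all windows. TTCNNNGAA was in 0 of the 7 and in 8.3% of all windows. No match overlapped a match of another motif, and a match is only a run of letters, not a measured binding site. The windows of Fcrla, Cd22, Cd37, Cd72 and Cd55 lie wholly inside the span of the gene. Sequence around the outer end of these genes was not searched. The windows of the 2 genes with the largest 4OHT differences, Fcrla and Tnfrsf13c, are followed by those of Cd22 and Cd37, which moved with both treatments. All 4 read 5′ to 3′ on the minus strand, and capitals mark a match of any of these motifs on either strand.
Fcrla, chr1:170927534-170927833: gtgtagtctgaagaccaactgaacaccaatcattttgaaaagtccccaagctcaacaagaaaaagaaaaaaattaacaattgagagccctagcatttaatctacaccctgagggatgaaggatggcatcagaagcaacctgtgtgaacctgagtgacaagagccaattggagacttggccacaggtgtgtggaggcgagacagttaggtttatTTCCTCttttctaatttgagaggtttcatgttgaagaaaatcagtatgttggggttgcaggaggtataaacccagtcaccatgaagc
Tnfrsf13c, chr15:82224331-82224630: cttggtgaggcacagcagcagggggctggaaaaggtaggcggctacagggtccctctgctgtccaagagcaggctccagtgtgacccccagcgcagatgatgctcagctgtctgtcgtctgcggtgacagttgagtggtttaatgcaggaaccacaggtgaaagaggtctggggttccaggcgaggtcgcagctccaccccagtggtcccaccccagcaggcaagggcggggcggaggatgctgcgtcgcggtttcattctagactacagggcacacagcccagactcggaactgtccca
Cd22, chr7:30878979-30879278: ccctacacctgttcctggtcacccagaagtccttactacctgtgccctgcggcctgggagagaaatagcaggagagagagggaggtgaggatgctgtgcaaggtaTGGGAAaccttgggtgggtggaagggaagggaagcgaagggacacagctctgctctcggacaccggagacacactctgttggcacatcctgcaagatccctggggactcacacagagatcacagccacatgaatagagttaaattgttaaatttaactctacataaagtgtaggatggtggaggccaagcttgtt
Cd37, chr7:45238790-45239089: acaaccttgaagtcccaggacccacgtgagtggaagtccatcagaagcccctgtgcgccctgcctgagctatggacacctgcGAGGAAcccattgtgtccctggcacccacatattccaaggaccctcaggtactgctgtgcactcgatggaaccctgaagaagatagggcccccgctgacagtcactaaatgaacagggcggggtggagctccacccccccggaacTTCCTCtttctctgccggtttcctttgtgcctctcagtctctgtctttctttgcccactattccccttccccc

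The deposited values of the 14 arrays were close in level but not equal. The quantile normalization within RMA draws levels together by itself, and array quality was not tested. With the experiment in the fit, 3731 genes differed between the 2 experiments. The array medians were 7.23 to 7.43, on the log2 scale of the authors' deposited values, and correlations within groups were 0.9968 to 0.9982 over all genes. All values below are log2 signals of RMA, and a difference of 1 is a 2-fold change. Ikzf1 itself was read at 13.02 to 13.38 and Bcl2 at 8.28 to 8.56 on every array. Ikzf1 passed in 3 comparisons and Bcl2 in 0. The signal of Ikzf1 does not report the activity of the fusion. Where its probes lie relative to the fusion is not given in the sources used here. Of 11 measured B lineage markers 9 lay above 7.33, the median of all values, in at least 1 group, and Rag1 and Rag2 lay below it. Of 12 T cell markers 5 were above it in at least 1 group, Cd3e, Cd28, Lat, Zap70 and Cd247, and Cd3d, Cd3g, Cd4, Cd8a, Cd8b1, Themis and Trat1 lay below it in every group. The counts above it were 2 of 8 for natural killer cells, 1 of 12 for myeloid cells, 3 of 5 for red cells and megakaryocytes, 3 of 6 for plasma cells and 3 of 8 for stromal cells. The mean signal of each of these 7 marker lists moved by at most 0.37 over the 14 arrays, and its part in the results was not tested. Single markers moved more, such as Klrb1c (5.06 to 7.84 over the arrays), Zap70 (8.63 to 10.30) and Vpreb1 (9.79 to 11.25). In at least 1 comparison 8 of 11 B lineage markers, 4 of 12 T cell and 4 of 8 natural killer cell markers passed. So did 4 of 6 plasma cell, 1 of 12 myeloid, 1 of 5 red cell and megakaryocyte and 0 of 8 stromal markers. In bulk RNA a change in the share of cells that express a gene and a change in RNA per cell cannot be told apart. The p-values measure the spread between arrays of a group, and differences were tested with limma over all genes with Benjamini-Hochberg adjustment.

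Fcrla and Tnfrsf13c carried the largest changes of the 9 genes, and Cd2 carried none. From the lowest to the highest group mean Fcrla spanned 3.22 (9.30-fold), Tnfrsf13c 1.79 (3.46-fold) and Cd55 1.65 (3.15-fold). Cd22 spanned 0.95, Cd37 0.82, Bank1 0.71, Ms4a1 0.69, Cd72 0.64 and Cd2 0.27. Tnfrsf13c, Cd22, Cd72 and Cd37 lay above 7.33 on all 14 arrays. Ms4a1, Cd2 and Bank1 lay below it on all 14, where small shifts of signal are harder to read, and Cd55 and Fcrla lay on both sides of it.

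**Figure D1:**
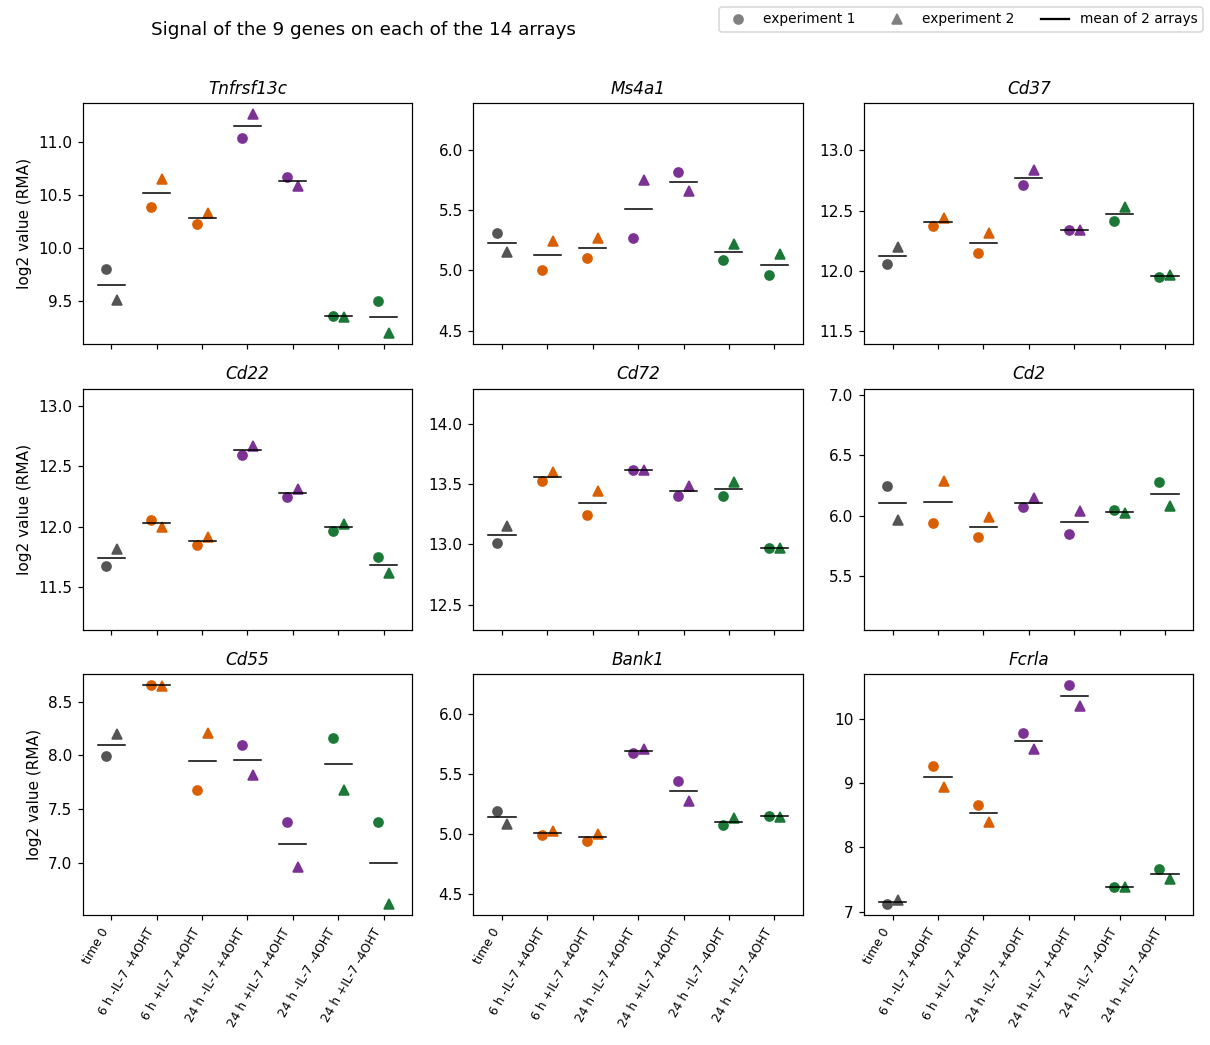
Log2 signal of each of the 9 genes on every array (y axis, a scale per gene) in the 7 groups (x axis, by time), with 1 point for each experiment and a bar at the group mean. Fcrla and Tnfrsf13c are high in all groups with 4OHT, Cd55 is low at 24 h with IL-7, and Cd2 stays within 5.82 and 6.28.

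At 24 h with IL-7, 4OHT raised 6 of the 9 genes and lowered none, while 5.22% of all genes rose and 3.94% fell. The 6 were Fcrla, Tnfrsf13c, Ms4a1, Cd22, Cd72 and Cd37. At 24 h without IL-7, 4OHT raised 5 of the 9 and lowered none, while 7.1% of all genes rose and 8.17% fell. These were Fcrla, Tnfrsf13c, Cd22, Bank1 and Cd37. The median difference of the 9 genes was 0.47 with IL-7 and 0.35 without it, and that of all genes was -0.04 and 0.01.

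IL-7 withdrawal at 24 h raised 4 of the 9 genes without 4OHT, where 11.2% of all genes rose and 8.78% fell: Cd55, Cd37, Cd72 and Cd22. With 4OHT it raised 5, where 12.8% of all genes rose: Cd55, Tnfrsf13c, Cd37, Cd22 and Bank1. It lowered 1, Fcrla, where 11.5% of all genes fell. The median difference of the 9 genes was 0.11 without 4OHT and 0.33 with it, and that of all genes was -0.01 and 0.06. Cd22, Cd37 and Cd55 thus rose on withdrawal in both settings. These 4 comparisons at 24 h share arrays in pairs, so their values are not independent of each other.

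Under 4OHT and withdrawal together, 8 of the 9 genes were higher than at 24 h with IL-7 and no 4OHT, called neither treatment below, and 18.1% of all genes were higher there and 15.4% lower. Cd2 was the exception. The median difference of the 9 genes was 0.82, and that of all genes was -0.01. Whether the 2 treatments acted other than additively was tested as an interaction, the 4OHT effect without IL-7 minus the 4OHT effect with it. In limma 0 of the 9 genes passed that test, where 0.687% of all genes passed, and 4 of the 9 had an unadjusted p under 0.05. Those 4 were Bank1 with 0.37 ± 0.10 (SE, adjusted p = 0.186), Tnfrsf13c with 0.51 ± 0.18 (adjusted p = 0.391), Cd72 with -0.31 ± 0.12 (adjusted p = 0.419) and Fcrla with -0.50 ± 0.19 (adjusted p = 0.445). A treatment effect that passed in 1 IL-7 setting and not in the other is therefore not shown to differ between them.

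**Figure D2:**
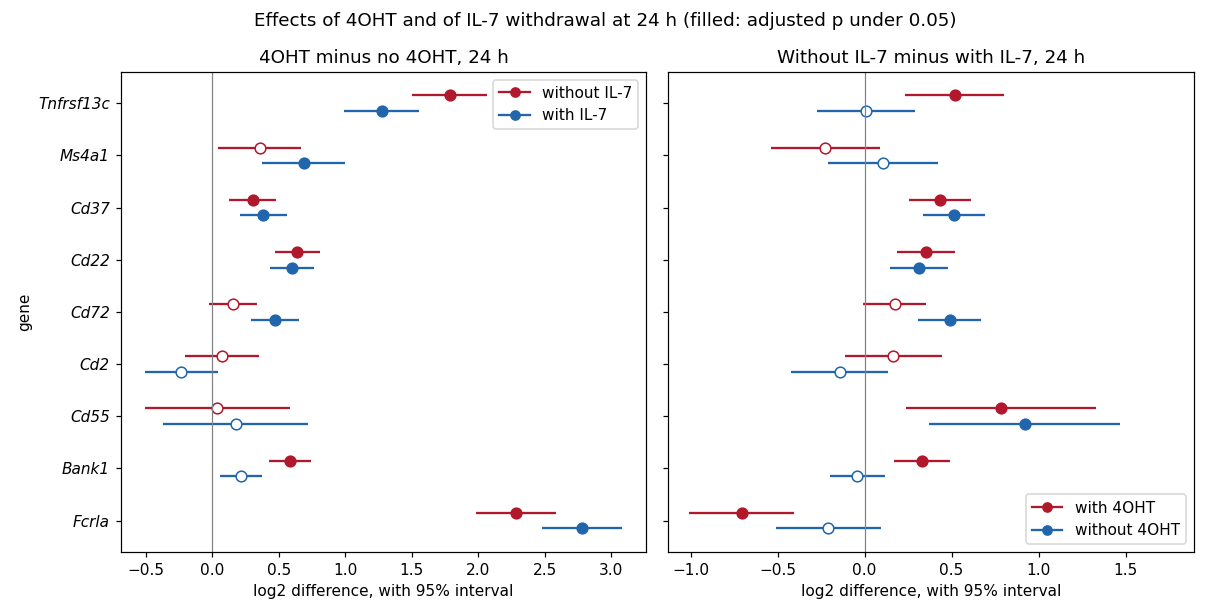
Log2 difference of the 9 genes (y axis) at 24 h, with its 95% interval (x axis), for 4OHT minus no 4OHT (left) and for culture without IL-7 minus culture with it (right). Filled points passed at an adjusted p under 0.05; on the left Fcrla and Tnfrsf13c lie farthest from 0, and on the right Fcrla lies below 0 with 4OHT while Cd55 lies highest.

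Tnfrsf13c, the receptor for BAFF, lies at chr15:82221742-82224380 and rose with 4OHT at 24 h, and between time 0 and 6 h with 4OHT. At 24 h without IL-7 it was read at 11.03 and 11.26 in experiments 1 and 2 with 4OHT, against 9.36 and 9.36 without 4OHT. At 24 h with IL-7 it was read at 10.67 and 10.59 with 4OHT, against 9.51 and 9.20 without it. The 4OHT groups did not overlap the groups without 4OHT. The difference was 1.78 ± 0.13 without IL-7 (SE, 3.44-fold, adjusted p = 1.87e-06) and 1.27 ± 0.13 with IL-7 (2.42-fold, adjusted p = 6.41e-05). At 6 h with 4OHT and IL-7 the values were 10.23 and 10.33, and at 6 h with 4OHT without IL-7 they were 10.39 and 10.65, against 9.81 and 9.51 at time 0. The lowest array at 6 h thus lay above the highest at time 0, and the rise with IL-7 was 0.62 ± 0.13 (adjusted p = 0.00905). Leaving out experiment 2 at time 0 ended that call (0.47, adjusted p = 0.0986), as did leaving out experiment 2 at 6 h with IL-7 (0.57, adjusted p = 0.0663).

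IL-7 withdrawal moved Tnfrsf13c under 4OHT at 24 h, by 0.52 ± 0.13 (adjusted p = 0.0112). Without 4OHT the difference was 0.01 ± 0.13 (95% interval -0.27 to 0.29, adjusted p = 0.984). The call under 4OHT was lost without experiment 2 of either group (0.48, adjusted p = 0.0704, without that of the IL-7 group; 0.40, adjusted p = 0.102, without that of the withdrawn group). At 6 h under 4OHT the withdrawal difference was 0.24 ± 0.13 (adjusted p = 0.313). Between 6 h and 24 h without IL-7 the gene rose by 0.63 ± 0.13 (adjusted p = 0.00735), a call that ended without experiment 1 at 6 h (0.49, adjusted p = 0.0843) or experiment 2 at 24 h (0.51, adjusted p = 0.0684). With IL-7 the difference over the same time was 0.35 ± 0.13 (adjusted p = 0.211). In the order of group means all 4 groups with 4OHT stood above the 3 without it, led by 24 h without IL-7 at 11.14 and followed by 24 h with IL-7 at 10.63. The next neighbours, 24 h with IL-7 and 6 h without it, did not differ beyond their spread, nor did the 6 h groups, nor the lowest pair, both at 24 h without 4OHT.

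Cd22 codes for a lectin that binds sialic acids linked to galactose and restrains the B cell receptor, and it lies at chr7:30865404-30880342. It rose with both treatments. At 24 h without IL-7 it was read at 12.59 and 12.67 with 4OHT, against 11.96 and 12.03 without 4OHT. At 24 h with IL-7 it was read at 12.25 and 12.31 with 4OHT, against 11.75 and 11.62 without it. No array with 4OHT overlapped its comparison group, and the rises were 0.64 ± 0.08 without IL-7 (adjusted p = 9.97e-05) and 0.60 ± 0.08 with IL-7 (adjusted p = 0.000356). Withdrawal raised it by 0.35 ± 0.08 with 4OHT (adjusted p = 0.00482) and by 0.31 ± 0.08 without 4OHT (adjusted p = 0.0121). The call without 4OHT ended when experiment 2 of the withdrawn group (0.28, adjusted p = 0.101) or of the IL-7 group (0.25, adjusted p = 0.106) was left out. At 6 h under 4OHT it was read at 12.06 and 11.999 without IL-7, against 11.85 and 11.92 with IL-7, and time 0 stood at 11.67 and 11.82. Neither 6 h difference passed (0.15 ± 0.08 for withdrawal, adjusted p = 0.293; 0.14 ± 0.08 against time 0, adjusted p = 0.391). From 6 h to 24 h under 4OHT Cd22 rose by 0.60 ± 0.08 without IL-7 (adjusted p = 0.000228) and by 0.40 ± 0.08 with IL-7 (adjusted p = 0.0138). The second of these was lost when any 1 of its 4 arrays was left out (0.36 to 0.43, adjusted p = 0.0537 to 0.106).

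Cd72, which codes for a receptor of semaphorin 4D that also restrains the B cell receptor, lies at chr4:43447724-43455102. It was read at 13.40 and 13.48 at 24 h with 4OHT and IL-7, against 12.97 and 12.97 at 24 h with IL-7 and no 4OHT. It was read at 13.61 and 13.61 at 24 h with 4OHT without IL-7, against 13.40 and 13.52 with no 4OHT and no IL-7. The 2 arrays with 4OHT without IL-7 at 24 h were the highest of the 14. The 4OHT difference was 0.47 ± 0.08 with IL-7 (adjusted p = 0.00338) and 0.15 ± 0.08 without it (adjusted p = 0.299). The withdrawal difference was 0.17 ± 0.08 with 4OHT (adjusted p = 0.165) and 0.49 ± 0.08 without it (adjusted p = 0.00139). After renewed quantile normalization the withdrawal difference with 4OHT was 0.28 and passed (adjusted p = 0.0496). At 6 h the values were 13.24 and 13.44 with 4OHT and IL-7 and 13.52 and 13.60 with 4OHT without IL-7, against 13.01 and 13.15 at time 0. The 6 h difference from time 0 was 0.26 ± 0.08 (adjusted p = 0.0776) and the withdrawal difference at 6 h was 0.22 ± 0.08 (adjusted p = 0.114). With the experiment as a block in the fit, which pairs the arrays of an experiment, both passed (adjusted p = 0.0156 and 0.0294).

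Cd37, a tetraspanin of B cells, lies at chr7:45233632-45239340 and was highest where both treatments were given. At 24 h it was read at 12.71 and 12.84 with 4OHT without IL-7, against 12.41 and 12.53 with no 4OHT and no IL-7. With IL-7 it was read at 12.34 and 12.34 with 4OHT, against 11.95 and 11.97 without 4OHT. Withdrawal raised it by 0.43 ± 0.08 with 4OHT (adjusted p = 0.00215) and by 0.51 ± 0.08 without 4OHT (adjusted p = 0.000926), and neither call was lost when an array was left out. The rises with 4OHT were 0.30 ± 0.08 without IL-7 (adjusted p = 0.026) and 0.38 ± 0.08 with IL-7 (adjusted p = 0.011). These were less firm: the rise with IL-7 was lost when any 1 of its 4 arrays was left out (0.37 to 0.39, adjusted p = 0.0518 to 0.0796). The rise without IL-7 was lost without experiment 2 of the 4OHT group (0.24, adjusted p = 0.175) or experiment 1 of the group without 4OHT (0.24, adjusted p = 0.215), and after renewed quantile normalization (adjusted p = 0.0559). At 6 h the gene stood at 12.15 and 12.31 with 4OHT and IL-7, at 12.38 and 12.44 with 4OHT without IL-7, and at 12.06 and 12.20 at time 0, and no 6 h difference passed. Without IL-7 it rose by 0.37 ± 0.08 between 6 h and 24 h (adjusted p = 0.0122), a call lost without experiment 1 at 6 h (0.33, adjusted p = 0.0973) or experiment 2 at 24 h (0.30, adjusted p = 0.0955).

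Ms4a1, the gene for CD20, lies at chr19:11249679-11266149 and had a low signal. It was read at 5.81 and 5.66 at 24 h with 4OHT and IL-7, against 4.96 and 5.14 without 4OHT. Without IL-7 it was read at 5.27 and 5.75 with 4OHT, against 5.09 and 5.22 without 4OHT. The groups with and without 4OHT did not overlap, but the 2 experiments lay apart in the group with 4OHT and no IL-7. The difference was 0.69 ± 0.14 with IL-7 (adjusted p = 0.00957) and 0.35 ± 0.14 without it (adjusted p = 0.139). Leaving out experiment 1 of the 4OHT group (0.61, adjusted p = 0.11) or of the group without it (0.60, adjusted p = 0.064) ended the call with IL-7. The difference without IL-7 passed without experiment 1 of the 4OHT group (0.59, adjusted p = 0.0135) and was 0.11 without its experiment 2. Before 24 h the gene lay between 5.01 and 5.31 on every array, time 0 included. The difference between 24 h and 6 h under 4OHT was 0.55 ± 0.14 with IL-7 (adjusted p = 0.0608) and 0.38 ± 0.14 without it (adjusted p = 0.123). Both passed with the experiment as a block (adjusted p = 0.0129 and 0.0464). Over the 7 groups no neighbours in the order of Ms4a1 means differed beyond their spread.

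Cd2, at chr3:101275908-101287939, passed in 0 of the 11 comparisons, with 0 of its 11 unadjusted p under 0.05. Its group means ran from 5.90 at 6 h with 4OHT and IL-7 to 6.18 at 24 h with IL-7 and no 4OHT. No neighbours in that order differed beyond their spread. Under both treatments at 24 h it was read at 6.07 and 6.15, against 6.28 and 6.08 under neither. That difference was -0.07 ± 0.13, with a 95% interval of -0.35 to 0.21.

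Cd55, the gene for decay accelerating factor, lies at chr1:130429798-130465009 and passed in comparisons of IL-7 and of time but in none of 4OHT alone. At 24 h with 4OHT it was read at 8.09 and 7.82 without IL-7, against 7.38 and 6.96 with IL-7. At 24 h without 4OHT it was read at 8.16 and 7.68 without IL-7, against 7.38 and 6.61 with IL-7. The withdrawn arrays lay above those with IL-7 in both settings, although the 2 experiments lay apart within the groups, farthest at 24 h with IL-7 and no 4OHT. Withdrawal raised Cd55 by 0.78 ± 0.25 with 4OHT (adjusted p = 0.0392) and by 0.92 ± 0.25 without 4OHT (adjusted p = 0.0211). The 4OHT difference at 24 h was 0.04 ± 0.25 without IL-7 (95% interval -0.51 to 0.58) and 0.17 ± 0.25 with IL-7 (-0.37 to 0.72). At 6 h under 4OHT the values were 8.66 and 8.65 without IL-7, the highest of the series, against 7.68 and 8.21 with IL-7. That withdrawal difference of 0.71 ± 0.25 did not pass (adjusted p = 0.0894) and did with the experiment as a block (adjusted p = 0.0394).

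Culture for 24 h with IL-7 and no 4OHT lowered 1 of the 9 genes relative to time 0 and raised none, where 2.36% of all genes fell and 0.737% rose. These shares rest on 617 genes, and 39 passed without experiment 2 at 24 h. That gene was Cd55, read at 7.38 and 6.61 at 24 h against 7.99 and 8.20 at time 0. The difference was -1.10 ± 0.25 (adjusted p = 0.0389, 2.14-fold lower). It was lost without experiment 2 at 24 h (-0.71, adjusted p = 0.318), without experiment 1 (-1.20, adjusted p = 0.0638) or 2 (-0.996, adjusted p = 0.287) at time 0, and without either array at 6 h with 4OHT without IL-7 (-1.10, adjusted p = 0.0532). It was also lost after renewed quantile normalization (-1.08, adjusted p = 0.0628). The withdrawal calls of Cd55 were also lost in some of the alternatives. With 4OHT the call ended without experiment 1 (0.65, adjusted p = 0.172) or 2 (0.92, adjusted p = 0.0659) of the withdrawn group, without experiment 2 of the IL-7 group (0.57, adjusted p = 0.224), and after renewed quantile normalization (0.69, adjusted p = 0.0976). Without 4OHT it ended without experiment 1 of the withdrawn group (0.68, adjusted p = 0.182) or experiment 2 of the IL-7 group (0.53, adjusted p = 0.217). Fcrla differed from time 0 by 0.44 ± 0.14 after the same culture (adjusted p = 0.118), and passed with the experiment as a block (adjusted p = 0.0132).

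Bank1, at chr3:136053363-136326141, had a low signal but little spread between experiments. At 24 h without IL-7 it was read at 5.67 and 5.71 with 4OHT, against 5.08 and 5.13 without 4OHT. At 24 h with IL-7 it was read at 5.44 and 5.28 with 4OHT, against 5.15 and 5.14 without it. The groups did not overlap in either setting. The rise without IL-7 was 0.58 ± 0.07 (adjusted p = 0.000138), and the difference with IL-7 was 0.21 ± 0.07 (adjusted p = 0.1). Withdrawal raised Bank1 by 0.33 ± 0.07 with 4OHT (adjusted p = 0.00561), a call lost without experiment 2 of the IL-7 group (0.25, adjusted p = 0.0641), and the difference without 4OHT was -0.04 ± 0.07 (adjusted p = 0.797). At 6 h the gene stood at 4.95 and 5.01 with 4OHT and IL-7 and at 4.99 and 5.03 with 4OHT without IL-7, below the 5.20 and 5.08 of time 0. That difference at 6 h with IL-7 was -0.16 ± 0.07 and did not pass (adjusted p = 0.251). From 6 h to 24 h under 4OHT it rose by 0.68 ± 0.07 without IL-7 (adjusted p = 7.46e-05) and by 0.38 ± 0.07 with IL-7 (adjusted p = 0.0125). The second of these was lost without experiment 1 at 24 h (0.30, adjusted p = 0.161), or experiment 1 (0.35, adjusted p = 0.0842) or 2 (0.41, adjusted p = 0.0536) at 6 h.

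Fcrla, at chr1:170917594-170932216, had the largest 4OHT response of the 9 genes. At 24 h with IL-7 it was read at 10.53 and 10.20 with 4OHT, against 7.66 and 7.51 without 4OHT. At 24 h without IL-7 it was read at 9.79 and 9.54 with 4OHT, against 7.38 and 7.38 without 4OHT. Every array with 4OHT at 24 h lay above every array without it. The rises were 2.78 ± 0.14 with IL-7 (6.88-fold, adjusted p = 3.8e-07) and 2.28 ± 0.14 without it (4.87-fold, adjusted p = 4.52e-07). At 6 h it was read at 8.66 and 8.40 with 4OHT and IL-7, against 7.11 and 7.19 at time 0, a rise of 1.38 ± 0.14 (2.60-fold, adjusted p = 5.65e-05). Fcrla was the only one of the 9 genes whose 2 experiments differed over all groups, by -0.18 for experiment 2 minus experiment 1 (adjusted p = 0.0285). All 6 gaps between neighbours in the order of its group means exceeded their spread.

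The withdrawal difference of Fcrla had opposite signs at the 2 times under 4OHT. At 6 h it was read at 9.26 and 8.95 without IL-7, against 8.66 and 8.40 with IL-7, a rise of 0.58 ± 0.14 (adjusted p = 0.0145). At 24 h it was read at 9.79 and 9.54 without IL-7, against 10.53 and 10.20 with IL-7, a fall of -0.71 ± 0.14 (adjusted p = 0.00258). The sign was the same in both experiments at each time. The effect at 24 h minus the effect at 6 h, a comparison added after the data had been seen, was -1.28 ± 0.19 (adjusted p = 0.0017), and 3.65% of all genes were lower by that test. It passed in all 20 alternatives run for it, but several of these could not move the difference. Fcrla has 1 probe set, so the mean of probe sets is the same value. Arrays at time 0 and at 24 h without 4OHT lie outside the comparison. The rise at 6 h alone was lost without experiment 1 of the withdrawn group (0.42, adjusted p = 0.135), without experiment 2 of the IL-7 group (0.44, adjusted p = 0.113), and when only the 4 compared arrays were fitted (adjusted p = 0.0544). Under 4OHT the gene rose between 6 h and 24 h by 1.84 ± 0.14 with IL-7 (adjusted p = 5.8e-05) and by 0.56 ± 0.14 without it (adjusted p = 0.0203). The second of these was lost without experiment 1 at 24 h (0.43, adjusted p = 0.157) or experiment 2 at 6 h (0.40, adjusted p = 0.167). Without 4OHT the withdrawal difference at 24 h was -0.21 ± 0.14 (adjusted p = 0.388).

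At 6 h 2 of the 9 genes, Fcrla and Tnfrsf13c, rose against time 0 with 4OHT and IL-7, and none fell, while 3.92% of all genes rose and 4.85% fell. Withdrawal at 6 h raised 1, Fcrla, where 6.78% of all genes rose and 7.48% fell. With the experiment as a block 3 rose on withdrawal at 6 h, Fcrla, Cd72 and Cd55. From 6 h to 24 h under 4OHT 3 of the 9 rose with IL-7, where 1.63% of all genes rose and 2.03% fell. Without IL-7 5 of the 9 rose, where 5.11% of all genes rose and 6.81% fell. None of the 9 fell over that time in either setting, although with the block Cd55 passed as lower without IL-7 (-0.70, adjusted p = 0.0477). Its difference was -0.77 ± 0.25 with IL-7 (adjusted p = 0.135).

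**Figure D3:**
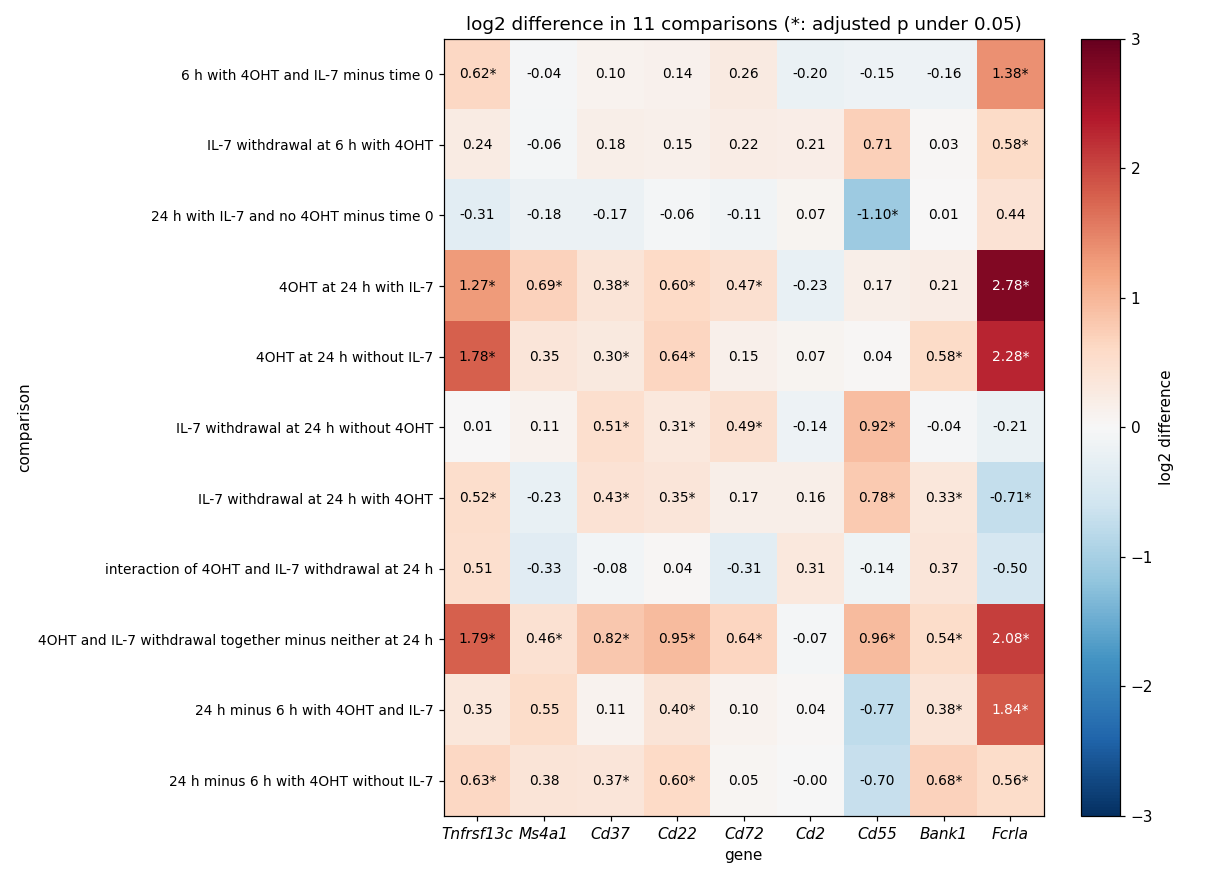
Log2 differences of the 9 genes (x axis) in the 11 comparisons (y axis), with the value in each cell and colour from blue (below 0) to red (above 0); an asterisk marks an adjusted p under 0.05. Fcrla holds the strongest colours, and the column of Cd2 has no asterisk.

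In the order of group means, the group with 4OHT without IL-7 at 24 h led for Tnfrsf13c, Cd22, Cd37, Cd72 and Bank1. The group with 4OHT and IL-7 at 24 h led for Fcrla and Ms4a1, and the group with 4OHT without IL-7 at 6 h led for Cd55. The group at 24 h with IL-7 and no 4OHT was the lowest for Tnfrsf13c, Cd22, Cd37, Cd72, Ms4a1 and Cd55. Of the 6 gaps between neighbours, 3 exceeded their spread for Tnfrsf13c, Cd22, Cd37 and Bank1 and 2 for Cd72 and Cd55. The leading group stood apart from the next one for Tnfrsf13c, Cd22, Cd37, Bank1, Cd55 and Fcrla, and did not for Cd72, Ms4a1 and Cd2.

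Over the 7 group means, Cd37 ran most alike with Cd72 (Pearson's r = 0.910) and with Cd22 (0.901). Tnfrsf13c ran alike with Fcrla (0.891) and with Cd22 (0.838), and Cd22 with Bank1 (0.833). A further search covered 1682 genes that spanned at least 1 over the group means. Their highest group mean lay above the median of all values, and predicted genes (Gm or Rik names) were left out. Among these the nearest to Tnfrsf13c were Hscb (0.992), Map4k1 (0.991) and Kcna3 (0.989). The nearest to Fcrla were Nucb2 (0.985), Tgfb1 (0.970) and Pfn2 (0.947), and the nearest to Cd55 were Rabgap1l (0.949), Ift80 (0.944) and Ldlrad4 (0.932). These are descriptions of 7 points each, and all points share the same arrays.

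Genes of the pathway in which the BAFF receptor acts rose in part, and none of the 11 measured fell in any of the 5 comparisons between groups at 24 h. With 4OHT 3 of the 11 rose with IL-7 (5 with the experiment as a block), where 5.22% of all genes rose. Without IL-7, 4OHT raised 5, where 7.1% of all genes rose. On withdrawal 4 rose with 4OHT and 5 without it, where 12.8% and 11.2% of all genes rose. Under both treatments against neither 8 rose, where 18.1% of all genes rose. Birc3, a ubiquitin ligase of the NF-kappaB pathway, was 1.27 ± 0.11 higher under both treatments (adjusted p = 1.65e-06), and its relative Birc2 was 0.86 ± 0.12 higher (adjusted p = 0.000109). Relb, a subunit of alternative NF-kappaB, rose by 0.54 ± 0.10 with 4OHT without IL-7 (adjusted p = 0.00212) and by 0.55 ± 0.10 on withdrawal with 4OHT (adjusted p = 0.00131). The median of the 11 genes was 0.46 under both treatments, and that of all genes was -0.01. The count with 4OHT and IL-7 fell to 0 without experiment 1 of the 4OHT group or with the compared arrays only and to 1 without experiment 2 of the group with no 4OHT, and that without IL-7 to 3 without experiment 1 of either group. On withdrawal without 4OHT 2 rose without experiment 2 of the IL-7 group or of the withdrawn group, and 3 after renewed quantile normalization or with the compared arrays only.

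Among 13 measured genes of the B cell receptor, its co-receptors and other inhibitory receptors, 4OHT raised 6 and lowered 2 in either IL-7 setting. Withdrawal raised 6 with 4OHT and 4 without it (with the block 6 rose and 1 fell there), and lowered none. Of all genes, 4OHT raised 5.22% and lowered 3.94% with IL-7, and raised 7.1% and lowered 8.17% without it. Withdrawal raised 12.8% of all genes and lowered 11.5% with 4OHT, and raised 11.2% and lowered 8.78% without it. Siglecg, an inhibitory lectin related to CD22, was read at means of 11.63 with 4OHT and 9.87 without it when IL-7 was lacking, a rise of 1.76 ± 0.18 (adjusted p = 3.39e-05), and with IL-7 it rose by 2.07 ± 0.18 (adjusted p = 2.12e-05). Fcgr2b, the inhibitory Fc receptor, rose by 1.73 ± 0.17 without IL-7 (adjusted p = 1.93e-05) and by 1.90 ± 0.17 with it (adjusted p = 2.01e-05). Both rises were larger than those of Cd22 and Cd72 in the same comparisons, on the scale of differences. Without experiment 2 of the IL-7 group 2 passed on withdrawal with 4OHT. Medians of the 13 genes under 4OHT were 0.10 without IL-7 and 0.02 with it, against 0.01 and -0.04 for all genes.

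Of 16 measured kinases, phosphatases and adaptors downstream, 4OHT raised 5 with IL-7, and raised 5 and lowered 1 without IL-7. Withdrawal raised 9 and lowered 1 with 4OHT, and raised 8 without 4OHT. The shares of all genes raised and lowered by 4OHT were 5.22% and 3.94% with IL-7, and 7.1% and 8.17% without it. On withdrawal they were 12.8% and 11.5% with 4OHT, and 11.2% and 8.78% without it. Syk, the kinase that starts signalling from the B cell receptor, rose with 4OHT by 0.95 ± 0.10 without IL-7 (adjusted p = 4.53e-05) and by 0.71 ± 0.10 with it (adjusted p = 0.000845). Dok3, an adaptor that restrains that signalling, rose by 0.66 ± 0.07 (adjusted p = 3.09e-05) and 1.02 ± 0.07 (adjusted p = 2.56e-06) in the same comparisons. Fyn, a Src family kinase, rose on withdrawal by 0.83 ± 0.10 with 4OHT (adjusted p = 6.45e-05) and by 1.08 ± 0.10 without it (adjusted p = 2.15e-05). The counts on withdrawal fell to 5 passing with 4OHT, without experiment 1 of the withdrawn group (6 with the compared arrays only), and to 4 without 4OHT, without experiment 2 of the IL-7 group. The 16 genes had a median of 0.44 under both treatments, where all genes had -0.01.

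The relatives of the membrane proteins went several ways. Of 18 measured tetraspanin and MS4A genes other than Cd37 and Ms4a1, 4OHT raised 1 and lowered 4 with IL-7, and raised 2 and lowered 6 without it. Of all genes, 4OHT raised 5.22% and lowered 3.94% with IL-7, and raised 7.1% and lowered 8.17% without it. Cd9 fell by 1.25 on the log2 scale (SE 0.10, adjusted p = 3.17e-06) without IL-7 and by 1.13 (SE 0.10, adjusted p = 1.61e-05) with it, and Tspan13 fell by 1.09 (SE 0.07, adjusted p = 1.1e-06) and 0.87 (SE 0.07, adjusted p = 1.54e-05), while Cd37 rose. On withdrawal with 4OHT 2 rose and 1 fell. With the block 7 rose and 1 fell there, and after renewed quantile normalization 5 rose and 1 fell. On withdrawal without 4OHT 3 rose and 1 fell. Of all genes 12.8% rose and 11.5% fell on withdrawal with 4OHT, and 11.2% rose and 8.78% fell without it. The withdrawal counts of the 18 genes in the main fit lie near those shares. Of these 18 genes 1 passed on withdrawal with 4OHT without experiment 1 of the IL-7 group, and 1 without 4OHT without experiment 2 of the IL-7 group. Under 4OHT 5 of the 18 passed without IL-7 when experiment 2 of the group with no 4OHT was left out, and 3 with IL-7 when experiment 1 of the 4OHT group was left out. Of 11 CD2 and SLAM family genes 5 rose and 1 fell with 4OHT without IL-7, and 4 rose with IL-7, led by Slamf6 with 0.71 ± 0.13 (adjusted p = 0.00259) and 0.79 ± 0.13 (adjusted p = 0.00223). The counts with 4OHT fell to 1 passing without IL-7 when experiment 1 of the group with no 4OHT was left out (3 or 4 without any other array at 24 h), and to 1 with IL-7 when experiment 2 of the group with no 4OHT was left out. On withdrawal 1 of these rose with 4OHT and 0 without it in limma, both below the shares of all genes given above. Of 7 complement regulators and receptors 3 rose on withdrawal with 4OHT (2 without experiment 1 of the IL-7 group) and 2 without it (1 without experiment 2 of the IL-7 group). Cd46 codes for a regulator that aids factor I, which does the cleaving of complement. Cd46 rose by 1.03 ± 0.18 (adjusted p = 0.00105) and 0.999 ± 0.18 (adjusted p = 0.00164), beside the rises of Cd55.

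Of 6 measured ligands of the 9 receptors or enzymes that make them, 1 rose on withdrawal in either 4OHT setting (2 in each with the block), where 12.8% of all genes rose with 4OHT and 11.2% without it. This was Cmah, which makes the sialic acid that mouse CD22 prefers, with 0.77 ± 0.13 with 4OHT (adjusted p = 0.00073) and 0.84 ± 0.13 without it (adjusted p = 0.000592). With 4OHT 0 of the 6 passed with IL-7 and 1 rose without it, Cd48, by 0.66 ± 0.19 (adjusted p = 0.0389), a call that was lost without experiment 1 of the group without 4OHT (0.34, adjusted p = 0.389) and without 6 other arrays in turn. Of 11 Fc receptor and Fc receptor-like genes other than Fcrla, 4OHT raised 1 and lowered 1 with IL-7 (1 to 3 passed with an array left out) and raised 2 without it (1 without experiment 1 of the 4OHT group). Fcrl1, a surface relative of FCRLA, passed the interaction test (0.87 ± 0.14, adjusted p = 0.0165). It was 0.43 ± 0.10 higher with 4OHT without IL-7 (adjusted p = 0.0116) and 0.44 lower with IL-7 (a difference of -0.44 ± 0.10, adjusted p = 0.0159), and each call was lost in 3 alternatives (-0.34 to -0.44 with IL-7, adjusted p = 0.0504 to 0.103; 0.42 to 0.45 without it, adjusted p = 0.0608 to 0.0751). Of 19 other markers of mature B cells, 4OHT raised 5 and lowered 1 with IL-7 and raised 5 without it. Among all genes 4OHT raised 5.22% and lowered 3.94% with IL-7, and raised 7.1% and lowered 8.17% without it. The same shares stand beside the 4OHT counts of the ligand and Fc receptor lists. Several genes stand on more than a single list, such as Btla, Fcgr2b and Cd48, so the counts of the lists are not independent of each other. S1pr1, the receptor that guides lymphocytes out of tissues, rose by 2.54 ± 0.13 without IL-7 (adjusted p = 1.72e-07) and by 2.05 ± 0.13 with it (adjusted p = 2.14e-06). Without experiment 1 of the group with no 4OHT 2 of the 19 passed with 4OHT without IL-7. On withdrawal 5 rose and 3 fell with 4OHT, where 12.8% of all genes rose and 11.5% fell, and 2 rose and 3 fell without it, where 11.2% rose and 8.78% fell. Cxcr5, a chemokine receptor of follicular B cells, fell on withdrawal by 2.36 on the log2 scale (SE 0.17, adjusted p = 2.07e-06) with 4OHT and by 0.89 (SE 0.17, adjusted p = 0.00299) without it.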

How the data were processed

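RNA of 14 cultures in 7 groups was measured on Affymetrix whole-transcript arrays, from 150 ng per array per the labels' protocols. Per the submitters' processing notes, values came from RMA in Affymetrix Expression Console 1.1, a method with background correction, quantile normalization and a summary over the probes of a set. The table the authors deposited gives log2 values for 35556 probe sets and was analysed unscaled. Other settings, the genome build and scanner intensities were not used here, so limits of detection were not read. Probe annotation gave 1 symbol to 21789 probe sets, several to 1621 and none to 12146. The brightest probe set stood for a gene, which left 19938 genes.

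Differences were tested two-sided with limma 3.58.1 in R 4.3.3, with 1 model of 7 group means on the 14 arrays (7 residual and 4.83 prior degrees of freedom). The threshold was 0.05 after Benjamini-Hochberg adjustment across all genes. The experiment number pairs arrays, since the labels call the 2 experiments independent, and in 21 of 21 pairs of groups the deviations of same-numbered arrays were positively correlated (0.124 to 0.631). The fit without that block was the main one. The other settings were the experiment as a block, renewed quantile normalization, leaving out dim genes, the compared arrays alone, another variance model, the mean of probe sets, a threshold of 0.01, and leaving out each array. Named list genes were the 2 largest differences that passed per list and comparison, in 5 comparisons at 24 h, of which the text gives examples. Neighbouring group means differed beyond their spread where their arrays did not overlap and the gap was at least the sum of the 2 SDs. The 9 genes, the lists and the tests were chosen with earlier results of these data known.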

Additional observations from a re-analysis of the deposited data

Results flagged for a closer look

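The effect of IL-7 withdrawal on Fcrla under 4OHT differed between the times. Withdrawal raised Fcrla by 0.58 at 6 h and lowered it at 24 h (a difference of -0.71), and the effect at 24 h minus the effect at 6 h was -1.28 ± 0.19 (SE, adjusted p = 0.0017 in limma). The comparison was chosen after seeing the data and rests on 2 experiments, and 998 genes passed it in all. The other 8 genes did not pass it, and the nearest were Bank1 with 0.30 (adjusted p = 0.159) and Cd37 with 0.25 (adjusted p = 0.319).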

How the results depend on the processing

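Of the 42 differences of the 9 genes that passed, 24 were lost in no alternative and 33 in none other than leaving out an array. The threshold of 0.01 was not among the alternatives of these counts. It ends further calls, such as that of Tnfrsf13c on withdrawal at 24 h with 4OHT (adjusted p = 0.0112 in limma). Not every alternative could move a difference, since each of the 9 genes had 1 probe set and some arrays left out lay outside the comparison. The cause of the changes below was not tested, except that the stricter threshold passes fewer genes by construction. Of the 9 genes 1 passed on withdrawal at 6 h, and 3 with the experiment as a replicate block, 0 with the compared arrays only and 0 at the threshold of 0.01. In culture for 24 h with IL-7 and no 4OHT against time 0, 1 of the 9 passed, and 2 with the replicate block (1 higher, 1 lower), and 0 after renewed quantile normalization, with the compared arrays only and at 0.01. At 0.01, 2 of the 4 passed on withdrawal at 24 h without 4OHT, and 1 of 3 and 3 of 5 passed between 6 h and 24 h under 4OHT with and without IL-7. The block ended no call of the 9 genes and made 7 more pass, all given above. It raised the count of all genes passing from 1748 to 2999 (6 h with 4OHT and IL-7 against time 0), 617 to 2056 (24 h with IL-7 and no 4OHT against time 0), 1826 to 3324 (4OHT at 24 h with IL-7), 137 to 449 (interaction), 729 to 1819 and 2377 to 3727 (24 h against 6 h under 4OHT with and without IL-7) and 998 to 1972 (the added comparison). With the compared arrays only, 884, 128 and 1494 genes passed in place of 1748, 617 and 2377. At 0.01 the counts were 1024 of 1748, 1602 of 2844, 130 of 617, 1005 of 1826, 1895 of 3045, 2468 of 3982, 3113 of 4846, 47 of 137, 296 of 729, 1291 of 2377 and 529 of 998. When arrays were left out in turn, the number of the 9 that passed ranged from 1 to 3 (6 h against time 0), 0 to 2 (withdrawal at 6 h), 0 to 1 (24 h against time 0), 2 to 4 and 3 to 6 (withdrawal at 24 h without and with 4OHT), 1 to 4 and 3 to 6 (24 h against 6 h with and without IL-7). All genes passing ranged from 1067 to 1737 (6 h against time 0), 1490 to 2892 (withdrawal at 6 h), 39 to 745 (24 h against time 0), 847 to 1885 and 1841 to 3104 (4OHT with and without IL-7), 2279 to 4024 and 3257 to 4898 (withdrawal at 24 h without and with 4OHT), 50 to 162 (interaction), 207 to 768 and 1315 to 2377 (24 h against 6 h with and without IL-7) and 591 to 1020 (added comparison). The compared arrays alone also ended the calls of Cd37 with 4OHT without IL-7 (adjusted p = 0.062), Ms4a1 under both treatments (0.0774), Cd22 (0.0503) and Bank1 (0.0728) between 6 h and 24 h with IL-7, and Cd37 (0.0601) and Fcrla (0.0605) without IL-7. Under both treatments Ms4a1 was lost without experiment 1 of the group with neither (0.37, adjusted p = 0.152) or experiment 2 of the group with both (0.22, adjusted p = 0.265), and Cd55 without experiment 1 of the group with both (0.82, adjusted p = 0.0728) or experiment 2 of the group with neither (0.57, adjusted p = 0.124).

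Differences that had not passed changed sign as follows. After renewed quantile normalization Cd55 with 4OHT without IL-7 stood at -0.0022, Tnfrsf13c on withdrawal without 4OHT at -0.025 and Cd72 in the added comparison at 0.042. With arrays left out, Ms4a1 ranged from -0.12 to 0.039 (6 h against time 0), -0.18 to 0.060 (withdrawal at 6 h), -0.47 to 0.015 (withdrawal at 24 h with 4OHT) and -0.40 to 0.076 (added comparison). Cd55 ranged from -0.42 to 0.11 (6 h against time 0), -0.21 to 0.56 and -0.20 to 0.28 (4OHT with and without IL-7), -0.52 to 0.25 (interaction) and -0.19 to 0.34 (added comparison). Cd2 ranged from -0.065 to 0.21 (24 h against time 0), -0.17 to 0.030 (both treatments), -0.052 to 0.13 and -0.18 to 0.17 (24 h against 6 h with and without IL-7) and -0.22 to 0.13 (added comparison). Cd22 ranged from -0.13 to 0.011 (24 h against time 0) and -0.023 to 0.11 (interaction), Bank1 from -0.049 to 0.063 (24 h against time 0), Tnfrsf13c from -0.14 to 0.16 (withdrawal without 4OHT), and Cd72 from -0.0032 to 0.20 (24 h against 6 h with IL-7) and -0.15 to 0.054 (added comparison). Leaving out dim genes removed Ms4a1, Cd2 and Bank1 from the test. Renewed quantile normalization moved the median difference of all genes to -0.08 at most, in the comparison of both treatments with neither.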

Other observations

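Zap70, a kinase of T cell receptor signalling, was the T cell marker that passed most often, in 7 comparisons, with the added one among those counted over. Its group mean was 10.20 at 24 h with 4OHT without IL-7 and 9.67 with 4OHT and IL-7, against 9.40 with no 4OHT and no IL-7 and 8.70 with IL-7 and no 4OHT. It rose with 4OHT by 0.80 ± 0.10 without IL-7 (adjusted p = 0.000133) and by 0.97 ± 0.10 with it (adjusted p = 6.94e-05), and on withdrawal by 0.53 ± 0.10 with 4OHT (adjusted p = 0.00203) and by 0.69 ± 0.10 without it (adjusted p = 0.000443). Of the other 11 T cell markers, Cd3e, Cd28, Lat and Cd247 lay above 7.33, the median of all values, in at least 1 group, and Cd3d, Cd3g, Cd4, Cd8a, Cd8b1, Themis and Trat1 lay below it in every group.

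Btla, an inhibitory receptor of lymphocytes, rose with 4OHT at 24 h by 1.52 ± 0.19 without IL-7 (adjusted p = 0.000168) and by 0.94 ± 0.19 with it (adjusted p = 0.00889). Tlr9, a sensor of unmethylated DNA in endosomes, was 2.19 ± 0.27 higher at 24 h under 4OHT and withdrawal together than under neither (adjusted p = 4.17e-05).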
